A study of Rattus norvegicus with 36 samples.

Results

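The 8 genes described here, Ager, Aqp5, Hopx, Pdpn, Rtkn2, Clic5, Cldn18 and Cav1, mark the alveolar type 1 cell of the lung. They were taken by name, as the probes of the array annotated with these symbols, and no measured value was a criterion. Earlier results of these data were, however, known when the genes were chosen. All 8 were found among the 25597 gene names of the array, on 13 of its 45598 probes. The measurements came from 36 rats, all female Sprague Dawley, aged 13 weeks at instillation. Under anaesthesia, each rat received into the trachea a suspension of DQ-12, a ground crystalline silica, at 10 mg per rat in sterile saline, or the saline vehicle alone. The lungs were taken 1, 30 or 180 days later (D1, D30 and D180), which gave 6 vehicle and 6 DQ-12 rats at each time, and total RNA of the accessory lobe of each rat was read on its own single-colour array.

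Alveolar type 1 cells are flat, very thin cells that line nearly all of the surface across which gas passes from air to blood, and they share a basement membrane with the capillaries beneath them. They are easily injured by inhaled particles, and lost ones are replaced by alveolar type 2 cells, which make surfactant and can divide and then flatten. Some of the 8 genes serve the shape and the membranes of the flat cell (Cav1, Pdpn, Clic5, Rtkn2), another encodes a receptor on its basal side (Ager), others form its water channel and its tight junctions (Aqp5, Cldn18), and the last encodes a nuclear protein (Hopx). Several of them are not restricted to these cells in the lung. Cav1 is also made by endothelial cells, Pdpn by lymphatic and mesothelial cells, and Cldn18 by type 2 cells.

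Each gene was read from the brighter of its probes, and the RNA that a probe can see is set by its sequence. Ager, Aqp5 and Cav1 had 1 probe each, and the other 5 genes had a second. The first 30 of the 60 bases of both probes are shown for the 4 genes in which the second probe was also well above background on all 36 arrays, because the paired probes did not always move alike. Each sequence is written 5′ to 3′ in lower case, as the array files give it.
Cldn18, brighter probe: gcttcgccatctatcgccattgctgtctca
Cldn18, dimmer probe: tcgctggaggcctcacactaattggaggtg
Hopx, brighter probe: ttaacactctggtggttggatgagaacacg
Hopx, dimmer probe: ttgaggagcttcctccactgtcccctcaga
Pdpn, brighter probe: gtagtgtcttggttacctgtgttggtactc
Pdpn, dimmer probe: ggcttcattggagggatcatcattgtggtt
Clic5, brighter probe: gctgtaaatgcgtttcctggtcttgattgg
Clic5, dimmer probe: ctaatgttaccggataatcaaaatgagact

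The array files place these probes on the rat genome build rn4. Both Cldn18 probes lay on the minus strand of chromosome 8, the brighter at chr8:104559797-104559856 and the dimmer at chr8:104564165-104564224. They start at base 2635 and base 570 of the transcripts they were designed on, so the brighter reads much nearer to the 3′ end. The Hopx probes lay on the plus strand at chr14:33377654-33377713 and chr14:33369080-33369139, and start at base 755 and base 40 of the same transcript. The dimmer Pdpn probe was given as chr5:162143371-162144357 on the minus strand, a span of 987 bases for a probe of 60, so it crosses a splice junction. The brighter Pdpn probe lay at chr5:162142262-162142321. Both Clic5 probes, at chr9:12370355-12370414 and chr9:12373202-12373261 on the minus strand, were designed on 1 transcript, from its bases 5773 and 3365. Among the remaining genes, Cav1 was read at chr4:42988912-42988971, Ager at chr20:4250619-4250678, Aqp5 at chr7:138340966-138341024 and Rtkn2 at chr20:21363358-21363417. All 8 symbols were found in the RefSeq gene table, and 12 of the 13 probe accessions belonged there to the same gene. The accession not listed there was that of the brighter Cldn18 probe, from which the Cldn18 signals are read.

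A signal here is the log2 of the processed intensity after quantile normalization, which gives every array the same distribution of values, so each signal is a level relative to the other RNAs of the lobe. The probes used for the 8 genes were well above background on 6 of 6 arrays in every group, and no spot of the series was saturated. For 7 of the 8 genes the probe lay among the brightest of the array, with at most 1.77% of the retained probes brighter, whereas 30.6% were brighter than that of Rtkn2. Between rats of a group, the median correlation of the arrays was 0.970 to 0.979. A gene passed when its adjusted p from limma was under 0.05 over all 23721 genes tested. The p-values rest on the spread between arrays of a group, 1 per rat, which also holds differences between slides and scan dates. The consensus correlation was 0.39 for arrays of a slide and 0.25 for those of a scan date, and the main fit left it out. In RNA from a whole lobe, fewer cells of a type and less RNA per cell cannot be told apart.

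Some of the 8 genes fell in DQ-12 rats at D1 and D30, and most of them at D180. At D1, 4 of the 8 fell (Cav1, Rtkn2, Clic5 and Pdpn) and none rose, where 8.76% of all genes tested fell and 7.69% rose. At D30, 2 of the 8 fell (Cav1 and Clic5) and none rose, against 1.27% of all genes lower and 2.78% higher. At D180, 7 of the 8 fell, all but Cldn18, and none rose, against 9.11% of all genes lower and 7.94% higher. These calls did not all hold when the arrays' scan date or slide was a term of the model, since none of the 4 at D1 passed with either and none of the 7 at D180 passed with slide. The falls were modest. The median log2 fold change of the 8 genes was -0.33 at D1, -0.27 at D30 and -0.48 at D180, and that of all genes -0.01, -0.02 and -0.03. None of the 8 genes reached a 2-fold change at any time in the limma fit, as 3.12%, 1.06% and 3.67% of all genes did with a passing p at D1, D30 and D180, although 5, 5 and 8 of them had an unadjusted p under 0.05 at those times.

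**Figure D1:**
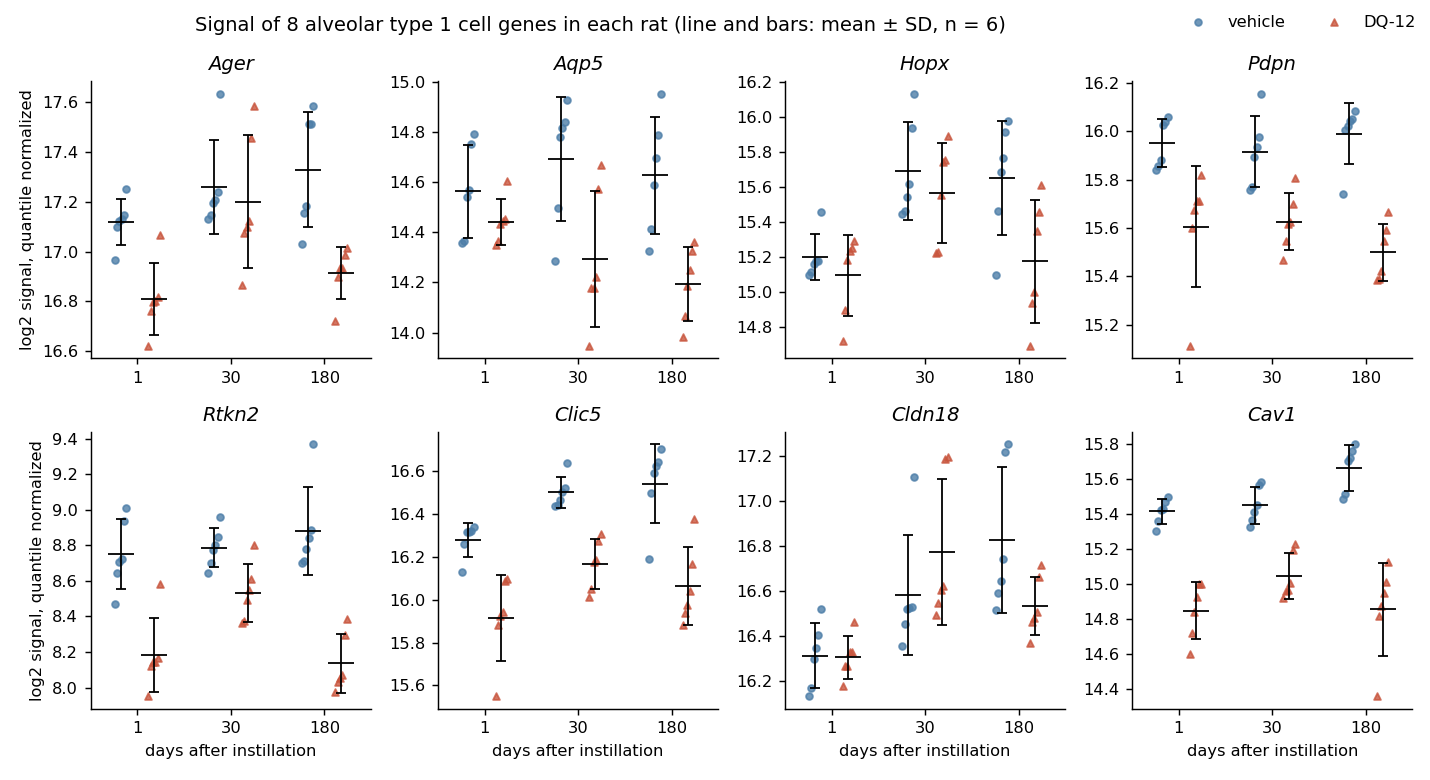
Log2 signal after quantile normalization (y axis) of the 8 genes in each rat against days after instillation, with vehicle rats as circles, DQ-12 rats as triangles, and the mean ± SD of 6 rats in black. At D180 the DQ-12 rats of Ager, Pdpn, Rtkn2 and Cav1 all lie below every vehicle rat, while the Cldn18 groups overlap at each time.

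Cav1 encodes caveolin-1, the protein that shapes the flask-like pits, or caveolae, of the thin cell membrane, and it was the gene that fell most at D180. At D1 its signal ran from 15.30 to 15.50 in vehicle rats (median 15.43) and from 14.60 to 15.00 in DQ-12 rats (median 14.88). The groups did not overlap, and the log2 fold change was -0.57 ± 0.10 (SE, adjusted p = 9.04e-05), a level 32.4% lower. At D30 the vehicle rats lay between 15.33 and 15.58 (median 15.43) and the DQ-12 rats between 14.92 and 15.23 (median 14.98), again apart, with a log2 fold change of -0.40 ± 0.10 (SE, adjusted p = 0.0111). At D180 all 6 DQ-12 rats were again below all vehicle rats. The vehicle range was 15.48 to 15.80 (median 15.71) and the DQ-12 range 14.36 to 15.13 (median 14.91). The level was 42.7% lower, with a log2 fold change of -0.80 ± 0.10 (SE, adjusted p = 2.17e-07).

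Rtkn2 encodes rhotekin-2, a scaffold protein of small GTPase signalling, and it was the dimmest of the 8. At D1 it ran from 8.47 to 9.01 in vehicle rats (median 8.72) and from 7.95 to 8.58 in DQ-12 rats (median 8.14). Only the highest of the DQ-12 rats reached into the vehicle range, and the log2 fold change was -0.57 ± 0.11 (SE, adjusted p = 5.57e-04). At D30 the vehicle rats lay between 8.64 and 8.96 (median 8.79) and the DQ-12 rats between 8.37 and 8.80 (median 8.52). That difference, -0.25 ± 0.11 (SE, adjusted p = 0.241), did not pass the test. At D180 the groups came apart, with 8.70 to 9.37 in vehicle rats (median 8.81) and 7.97 to 8.39 in DQ-12 rats (median 8.06). Rtkn2 was then 40.4% lower, with a log2 fold change of -0.75 ± 0.11 (SE, adjusted p = 9.53e-06). Its second probe, from base 4285 of the same transcript, was well above background on only 7 of the 36 arrays, and gave log2 fold changes of 0.92 ± 0.50 at D1, 0.34 ± 0.50 at D30 and -0.08 ± 0.50 at D180 (SE), of which none passed.

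Clic5 encodes a chloride intracellular channel protein that ties the membrane to the cytoskeleton. At D1 its signal ran from 16.13 to 16.34 in vehicle rats (median 16.31) and from 15.55 to 16.10 in DQ-12 rats (median 15.93). The groups did not overlap, and the log2 fold change was -0.36 ± 0.09 (SE, adjusted p = 0.00589). They were also apart at D30, at 16.44 to 16.63 (median 16.48) against 16.01 to 16.30 (median 16.18), with a log2 fold change of -0.33 ± 0.09 (SE, adjusted p = 0.0338). This call at D30 was close to the threshold and was lost when any of 7 of the 12 rats of that time was left out, vehicle replicates 1, 2, 5 and 6 and DQ-12 replicates 1, 4 and 6, with the highest adjusted p, 0.105, without DQ-12 replicate 1. At D180 the vehicle rats lay between 16.19 and 16.70 (median 16.61) and the DQ-12 rats between 15.88 and 16.38 (median 16.01). There 5 of 6 DQ-12 rats were below every vehicle rat, and the log2 fold change was -0.48 ± 0.09 (SE, adjusted p = 2.92e-04). The dimmer Clic5 probe shown above also fell at D1, by 0.56 ± 0.12 on the log2 scale (SE, adjusted p = 0.00209 over all probes), and at D180, by 0.66 ± 0.12 (SE, adjusted p = 2.66e-04). At D30 it gave -0.21 ± 0.12 (SE, adjusted p = 0.450) and did not pass.

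Pdpn encodes podoplanin, a glycoprotein of the apical surface that binds the ezrin family of linker proteins and was one of the first markers used for these cells in rats. At D1 its signal was 15.84 to 16.06 in vehicle rats (median 15.95) and 15.12 to 15.82 in DQ-12 rats (median 15.69). The groups were narrowly apart, with a log2 fold change of -0.34 ± 0.09 (SE, adjusted p = 0.0103). At D30 the vehicle rats lay between 15.76 and 16.15 (median 15.91) and the DQ-12 rats between 15.47 and 15.80 (median 15.62). All but the highest DQ-12 rat were below the vehicle range, but the log2 fold change of -0.29 ± 0.09 (SE, adjusted p = 0.0814) did not pass. At D180 the groups did not overlap, at 15.74 to 16.08 (median 16.03) against 15.39 to 15.67 (median 15.49). Pdpn was then 28.8% lower, with a log2 fold change of -0.49 ± 0.09 (SE, adjusted p = 2.56e-04). The probe that crosses the splice junction gave -0.05 ± 0.11 at D1 (SE, adjusted p = 0.800), so the fall at D1 was seen by the probe near the 3′ end, but at D180 the junction probe fell by 0.39 ± 0.11 on the log2 scale (SE, adjusted p = 0.00953).

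Ager encodes RAGE, a receptor for advanced glycation end products and for several S100 proteins that is far more abundant on type 1 cells than elsewhere in the body. It was the brightest of the 8, with only 0.0922% of the retained probes brighter. At D1 its signal ran from 16.97 to 17.25 in vehicle rats (median 17.13) and from 16.62 to 17.07 in DQ-12 rats (median 16.80). Although 5 of 6 DQ-12 rats were below all vehicle rats, the log2 fold change of -0.31 ± 0.11 (SE, adjusted p = 0.0520) just missed the threshold. At D30 the groups overlapped broadly, at 17.13 to 17.63 (median 17.20) against 16.87 to 17.58 (median 17.11), and the log2 fold change was -0.06 ± 0.11 (SE, adjusted p = 0.900). At D180 they were apart by a narrow gap. The vehicle rats lay between 17.03 and 17.58 (median 17.35) and the DQ-12 rats between 16.72 and 17.02 (median 16.93), a level 25.0% lower (log2 fold change -0.42 ± 0.11, SE, adjusted p = 0.00684).

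Aqp5 encodes aquaporin-5, the water channel of the apical membrane. Its groups overlapped at D1, at 14.36 to 14.79 in vehicle rats (median 14.56) against 14.35 to 14.61 in DQ-12 rats (median 14.44), with a log2 fold change of -0.12 ± 0.12 (SE, adjusted p = 0.558). At D30 the vehicle rats lay between 14.28 and 14.93 (median 14.80) and the DQ-12 rats between 13.95 and 14.67 (median 14.20). The lowest vehicle rat lay inside the DQ-12 range, and the log2 fold change of -0.40 ± 0.12 (SE, adjusted p = 0.0600) did not pass. At D180 Aqp5 was 25.9% lower, with a log2 fold change of -0.43 ± 0.12 (SE, adjusted p = 0.0112). The signal was then 14.33 to 14.95 in vehicle rats (median 14.64) and 13.98 to 14.36 in DQ-12 rats (median 14.22), and 5 of 6 DQ-12 rats were below every vehicle rat.

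Hopx encodes a small homeodomain protein that does not bind DNA itself and acts through partner proteins. Its groups overlapped at all 3 times. The signal was 15.10 to 15.46 in vehicle rats (median 15.17) against 14.72 to 15.29 in DQ-12 rats (median 15.21) at D1, with a log2 fold change of -0.10 ± 0.16 (SE, adjusted p = 0.729). At D30 it was 15.45 to 16.13 (median 15.58) against 15.22 to 15.89 (median 15.65), with -0.13 ± 0.16 (SE, adjusted p = 0.817). Hopx passed at D180 alone, at 15.10 to 15.97 in vehicle rats (median 15.72) against 14.69 to 15.61 in DQ-12 rats (median 15.17), with a log2 fold change of -0.47 ± 0.16 (SE, adjusted p = 0.0366). Only 3 of 6 DQ-12 rats were below the vehicle range there. The call was lost when any of 7 of the 12 rats was left out, vehicle replicates 1, 3, 4 and 5 and DQ-12 replicates 4, 5 and 6, with the highest adjusted p, 0.119, without DQ-12 replicate 4. The dimmer Hopx probe, which starts at base 40, gave 0.39 ± 0.14 at D1 (SE, adjusted p = 0.0548), -0.17 ± 0.14 at D30 and 0.10 ± 0.14 at D180, and so did not fall with the 3′ probe at D180.

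Cldn18 encodes claudin-18, the tight junction protein particular to lung and stomach, and it was the gene of the 8 that passed at no time. At D1 its signal was 16.13 to 16.52 in vehicle rats (median 16.32) and 16.18 to 16.46 in DQ-12 rats (median 16.30), with a log2 fold change of -0.01 ± 0.14 (SE, adjusted p = 0.984). At D30 the DQ-12 rats were, if anything, the higher ones, at 16.49 to 17.20 (median 16.61) against 16.35 to 17.11 (median 16.52), with a log2 fold change of 0.19 ± 0.14 (SE, adjusted p = 0.556). The value at D180 was -0.29 ± 0.14 (SE, adjusted p = 0.153), from 16.51 to 17.25 in vehicle rats (median 16.69) and 16.37 to 16.71 in DQ-12 rats (median 16.50). In these overlapping groups the 95% interval of the log2 fold change ran from -0.29 to 0.27 at D1, from -0.09 to 0.47 at D30 and from -0.57 to -0.01 at D180, so a fall of the size seen in Clic5 at D180 was not outside it there. The dimmer probe of Cldn18, nearer the start of its transcript, gave the opposite sign at D180. It rose at D1, by 0.31 ± 0.10 (SE, adjusted p = 0.0348), and gave 0.27 ± 0.10 (SE, adjusted p = 0.156) at D30 and 0.22 ± 0.10 (SE, adjusted p = 0.151) at D180. Which transcript each of these probes reads, and which follows the amount of Cldn18 RNA more closely, was not tested.

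**Figure D2:**
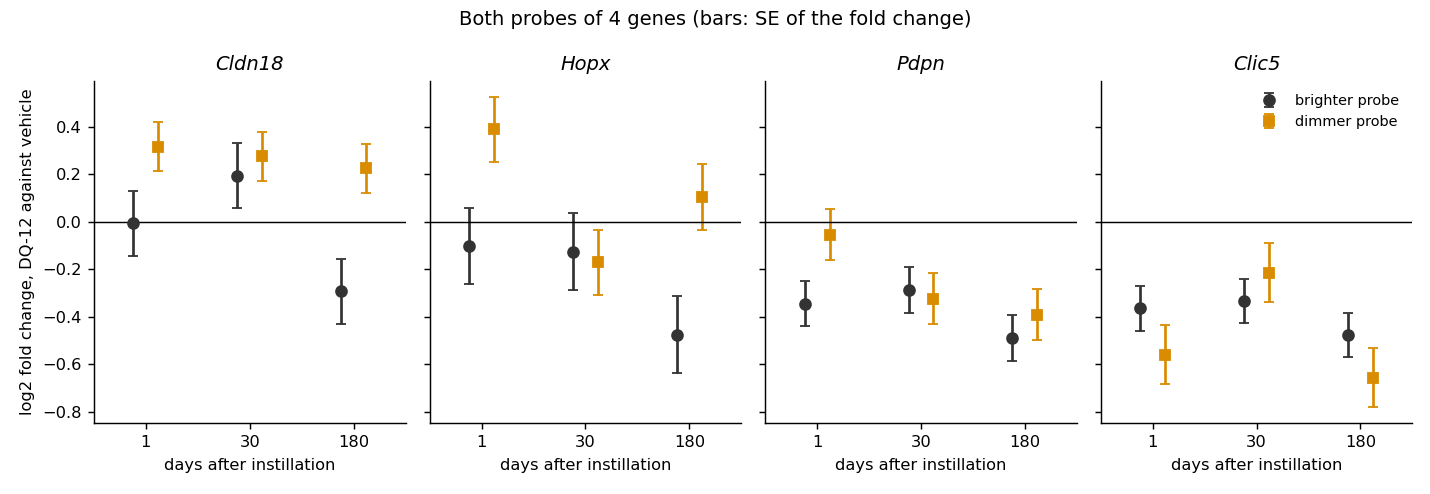
Log2 fold change of DQ-12 against vehicle rats (y axis) against days after instillation for both probes of Cldn18, Hopx, Pdpn and Clic5, with bars for the SE. Both probes of Clic5 lie below 0 at each time, whereas the dimmer probe of Cldn18 lies above 0 at each time and that of Hopx at D1 and D180.

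Across the 8 genes, the groups did not overlap, with the DQ-12 rats lower, for 3 genes at D1 (Pdpn, Clic5 and Cav1), where 6.04% of all genes did so. They were apart for 2 genes at D30 (Clic5 and Cav1), against 0.561% of all genes, and for 4 genes at D180 (Ager, Pdpn, Rtkn2 and Cav1), against 3.5%. At D180 every DQ-12 rat shared in the fall, which was less even at D1 and D30. Each DQ-12 rat had between 3 and 6 of the 8 genes below all vehicle rats at D1, between 4 and 6 at D30, and between 6 and 7 at D180. The like count per rat over all genes is not given. Averaged over the 8 genes and set against the vehicle mean of the same day, the log2 level of the DQ-12 rats was -0.49 to -0.09 at D1 (vehicle -0.13 to 0.10), -0.32 to -0.04 at D30 (vehicle -0.10 to 0.15) and -0.66 to -0.42 at D180 (vehicle -0.11 to 0.16). Only at D180 did these averages leave a gap between the groups. DQ-12 replicate 4 at D1 (-0.09) and DQ-12 replicate 6 at D30 (-0.04) lay within the vehicle range of their time.

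Within a gene, the order of the 6 groups was broadly alike. The D180 vehicle rats had the highest mean for 6 of the 8 genes, all but Aqp5 and Hopx, and the lowest mean was that of a DQ-12 group for all 8. No slide or scan date was shared between times, so levels at different times cannot be told apart from slide or scan date. Most neighbours in these orders overlapped. The ranges of only 2 of 40 neighbouring pairs of groups did not, D30 and D1 vehicle rats for Clic5, and D1 vehicle and D30 DQ-12 rats for Cav1. Overlap of ranges is not a test, and levels of groups of different times were not tested against each other.

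**Figure D3:**
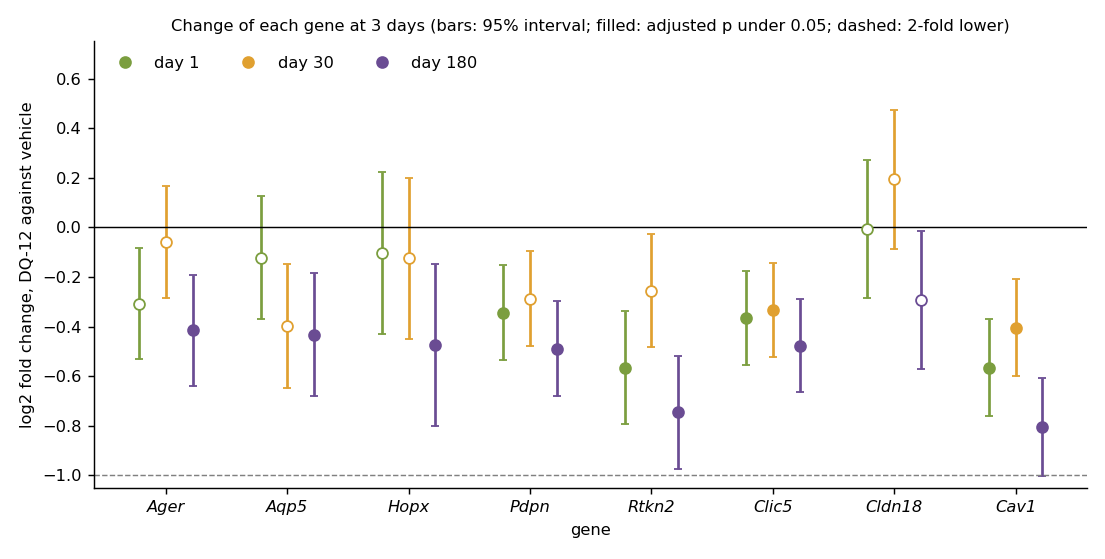
Log2 fold change of DQ-12 against vehicle rats (y axis) of each of the 8 genes at D1, D30 and D180, with the 95% interval of the limma fit as bars, filled points where the adjusted p was under 0.05, and a dashed line at a 2-fold lower level. At D180, 7 of 8 points are filled, and Cav1 at -0.80 and Rtkn2 at -0.75 lie lowest.

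Whether the change itself differed between times was tested as an interaction in the same fit. The point estimates were smaller at D30 than at D180 for all 8 genes, with differences of -0.49 for Rtkn2, -0.49 for Cldn18, -0.40 for Cav1 and -0.36 for Ager. None of the 8 genes passed for D180 against D30 in limma (0.249% of all genes did), although these 4 had an unadjusted p under 0.05, and the lowest adjusted p was 0.189, for Rtkn2. For D30 against D1 and for D180 against D1, 0 of the 8 passed and 0 had an unadjusted p under 0.05, where 2.21% and 4.65% of all genes passed. A weaker change at D30 was therefore not established for any of the 8 genes.

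A longer list of 21 other genes known from type 1 cells moved the same way. This list and those below were chosen with earlier results of these data known, so they give no independent support. At D1, 10 of the 19 measured fell, at D30 3 and at D180 14, none rose at any time, and the median log2 fold changes were -0.32, -0.22 and -0.52. Of all genes, 8.76%, 1.27% and 9.11% fell and 7.69%, 2.78% and 7.94% rose, shares that also stand beside the lists below. The calls of this list and those below come from the fit without scan date or slide as a term. All 6 DQ-12 arrays of D1 were scanned on a date that held 1 vehicle array, so exposure and scan date cannot be well told apart there. At D1 the longer list was led by Igfbp2, a binding protein of insulin-like growth factors that marks mature type 1 cells (-0.97 ± 0.18, SE, adjusted p = 2.24e-04). Col4a3 and Col4a4, which encode chains of the basement membrane collagen, followed with -0.92 ± 0.20 (SE, adjusted p = 0.00171) and -0.81 ± 0.11 (SE, adjusted p = 3.45e-06). Col4a4 also fell at D30 (-0.47 ± 0.11, SE, adjusted p = 0.0102), as did Krt7, a keratin (-0.42 ± 0.10, SE, adjusted p = 0.00804), and Sec14l3, a lipid-binding protein (-0.43 ± 0.10, SE, adjusted p = 0.0114). At D180 Limch1, which regulates non-muscle myosin, fell by 0.73 ± 0.11 on the log2 scale (SE, adjusted p = 6.02e-06), and Sec14l3 and Col4a3 by 0.68 ± 0.10 and 0.67 ± 0.20.

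The caveolar partners of Cav1 were counted separately. Of 7 measured, 2 fell at D1, 2 at D30 and 5 at D180, and none rose. Cav2, the partner with which caveolin-1 forms its coat, fell at D1 (-0.36 ± 0.10, SE, adjusted p = 0.0173) and at D30 (-0.42 ± 0.10, SE, adjusted p = 0.0156), and so did Pacsin2, which bends the membrane, at D1 (-0.32 ± 0.09) and Cavin3 at D30 (-0.47 ± 0.14). At D180 Cavin3, Ehd2 and Cavin1, which complete the coat and its neck, fell by 0.68 ± 0.14, 0.67 ± 0.14 and 0.64 ± 0.14 on the log2 scale (SE, adjusted p at most 9.19e-04).

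Cav1 and its partners are also made by endothelial cells, and markers of those cells fell with them. Of 10 capillary and endothelial genes, all well above background on every array, 0 passed at D1 in limma (6 had an unadjusted p under 0.05), 1 at D30 and 9 at D180, all lower, with median log2 fold changes of -0.29, -0.29 and -0.64. Ednrb, the type B endothelin receptor, was lowest at D180 (-1.01 ± 0.15, SE, adjusted p = 1.08e-05). Cldn5, the endothelial claudin, fell at D30 (-0.78 ± 0.21, SE, adjusted p = 0.0278) and at D180 (-0.90 ± 0.21, SE, adjusted p = 0.00223), and Car4, a carbonic anhydrase of the alveolar capillary, at D180 (-0.87 ± 0.16). The mean level of this list, set against the vehicle mean, was -1.03 to -0.45 in DQ-12 rats at D180 and -0.13 to 0.12 in vehicle rats. Of 6 lymphatic and mesothelial genes, which cover the other sources of Pdpn, 2 fell at each time, among them Lyve1 at D1 (-0.47 ± 0.16) and D180 (-0.78 ± 0.16), Wt1 at D1 (-0.74 ± 0.23), Msln at D30 (-0.44 ± 0.10), and Upk3b at D30 (-0.53 ± 0.15) and D180 (-0.80 ± 0.15). The part of endothelial, lymphatic or mesothelial RNA in the lower levels of Cav1 and Pdpn was not tested.

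Genes of the other alveolar epithelial cell did not fall together. Of 10 type 2 genes, 1 fell and 2 rose at D1, 3 rose at D30, and 1 fell and 4 rose at D180, with median log2 fold changes of 0.10, 0.19 and 0.31. One of the 10, the surfactant protein gene Sftpc, had the same value in every rat of 5 of the 6 groups, because quantile normalization gives the brightest probe of each array the same value, so its change could not be read. Without it, the medians of the other 9 genes were 0.19, 0.24 and 0.37. Sftpa1, a surfactant protein, rose at all 3 times (0.48 ± 0.09, 0.49 ± 0.09 and 0.47 ± 0.09, SE, adjusted p at most 0.00128), Sftpd at D30 (0.66 ± 0.12) and D180 (0.47 ± 0.12), Lamp3, of the lamellar body, at D30 (0.75 ± 0.12), Napsa at D180 (0.41 ± 0.11), and Lpcat1, an enzyme of surfactant lipid synthesis, at D1 (0.96 ± 0.17). Sftpb fell at D1 by 0.18 ± 0.06. Of 6 genes common to epithelia, 1 rose at D1 (Epcam, 0.30 ± 0.08), 1 at D30 (Elf3, 0.83 ± 0.20), and Elf3 rose at D180 too (1.15 ± 0.20). Of 6 airway genes, Scgb3a2 fell at D1 (-0.41 ± 0.13), and Muc5b passed there as higher but was well above background on only 2 of 6 vehicle and 5 of 6 DQ-12 arrays, so its fold change is not given. In this list 0 genes passed at D30 in limma (3 had an unadjusted p under 0.05), and Tppp3 fell at D180 (-0.62 ± 0.12).

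Among 12 genes of the transitional state through which type 2 cells pass on their way to type 1 cells, 3 rose at D1, 1 rose and 2 fell at D30, and 4 rose and 1 fell at D180. Areg, a growth factor of the epidermal family, and Sfn, a 14-3-3 protein, rose at D1 (1.64 ± 0.32 and 0.98 ± 0.14, SE), and Sfn again at D180 (0.67 ± 0.14). Lgals3, galectin-3, rose at all 3 times (0.46 ± 0.12, 1.02 ± 0.12 and 1.21 ± 0.12, SE, adjusted p at most 0.00956), and Plaur, the urokinase receptor, at D180 (1.04 ± 0.21). Krt19 and Hbegf fell at D30 (-0.60 ± 0.13 and -0.60 ± 0.17). Lgals3 and Plaur are made by macrophages too. Of 8 regulators of alveolar epithelial fate, Foxa2 fell at D1 (-0.57 ± 0.19, SE, adjusted p = 0.0312), 0 passed at D30 in limma (1 had an unadjusted p under 0.05), and at D180 Tead1, a partner of the YAP and TAZ coactivators, fell (-0.50 ± 0.14, SE, adjusted p = 0.00896) and Cebpa rose (0.35 ± 0.12, SE, adjusted p = 0.0426).

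Leukocyte RNA moved with the 8 genes at D180, in the opposite direction. Of 8 pan-leukocyte genes, all well above background on every array, 3 fell at D1 (Cd52, Laptm5 and Ptprc), 2 rose at D30 (Fcer1g and Tyrobp), and at D180 5 rose and Cd52 fell. Tyrobp and Cd53 rose by 0.85 ± 0.12 and 0.84 ± 0.10 at D180. The mean level of this list, set against the vehicle mean, was -0.28 to -0.06 in DQ-12 rats at D1 (vehicle -0.16 to 0.17), -0.01 to 0.36 at D30 (vehicle -0.26 to 0.26) and 0.32 to 0.45 at D180 (vehicle -0.11 to 0.27). The list holds no gene particular to neutrophils. The part of added leukocyte RNA in the lower relative levels of the type 1 genes was not tested at any of the 3 times.

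**Figure D4:**
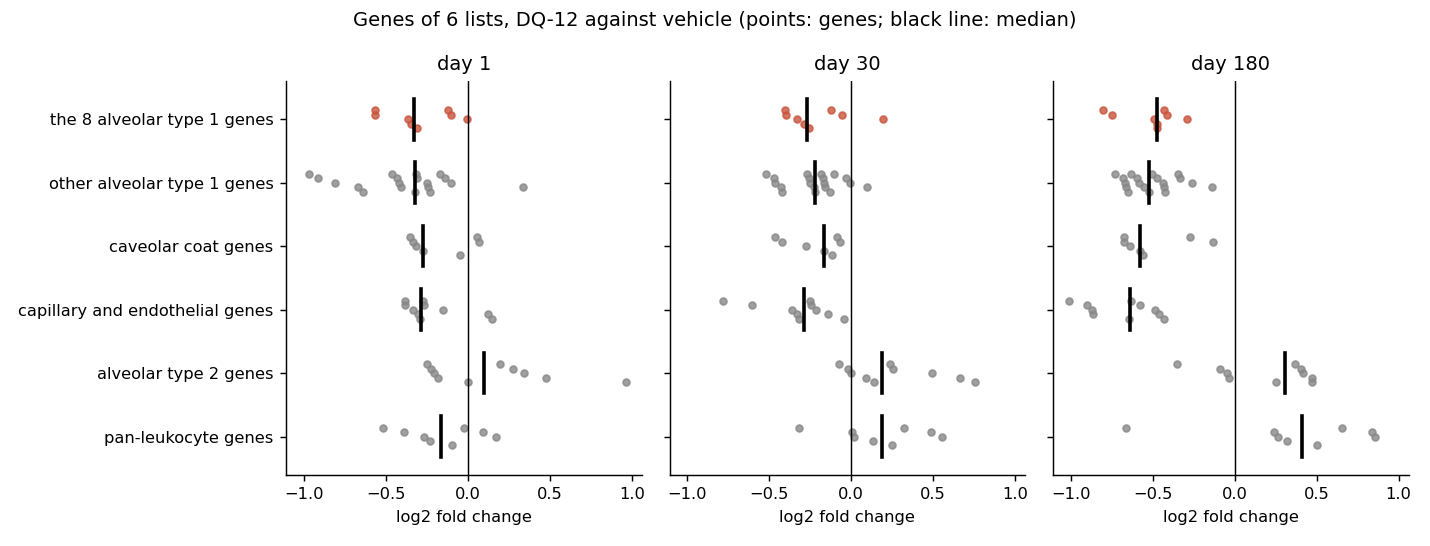
Log2 fold change of DQ-12 against vehicle rats (x axis) for the genes of 6 lists (rows) at D1, D30 and D180, with a point for each gene and a black line at the list's median. The 8 type 1 genes (red) have medians of -0.33, -0.27 and -0.48, and the type 2 genes of 0.10, 0.19 and 0.31.

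Genes that act with single members of the 8 were also read. Among 6 ligands of RAGE, the protein of Ager, the calprotectin genes S100a9 and S100a8 rose at D30 (S100a9 by 1.93 ± 0.25, SE) and at D180 (2.57 ± 0.25 and 1.56 ± 0.24), S100a4 rose at D1 (0.39 ± 0.11), and S100b fell at D180 (-1.18 ± 0.31). S100a8 and S100a9 are abundant in neutrophils, and at D1 they gave 0.38 ± 0.24 and 0.40 ± 0.25 (SE, adjusted p = 0.325 and 0.312), which did not pass. Of 10 genes of alveolar salt and water transport beside Aqp5, Aqp1, the endothelial water channel, fell at D30 (-0.53 ± 0.10, SE, adjusted p = 7.07e-04) and at D180 (-0.75 ± 0.10, SE, adjusted p = 8.03e-07). Aqp4 fell at D1 (-0.90 ± 0.17), while Aqp3 rose at D1 (1.69 ± 0.42) and D180 (1.31 ± 0.42), and the sodium pump gene Atp1b1 rose at D180 (0.71 ± 0.17). Aqp3 was not well above background on every array.

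Cldn18 was set beside 10 other tight junction genes, of which 1 fell at D1 (Ocln, -0.43 ± 0.14), and 1 at D30 (F11r, -0.48 ± 0.13). At D180 Tjp1, a scaffold of the junction, fell (-0.51 ± 0.13) and Tjp3 rose (0.38 ± 0.13). Of 8 partners of podoplanin, Clec1b, the receptor by which platelets bind it, fell at all 3 times (-0.46 ± 0.12, -0.44 ± 0.12 and -0.96 ± 0.12, SE, adjusted p at most 0.0340). Rhoa fell at D30 (-0.77 ± 0.21), Cd9 fell at D180 (-0.59 ± 0.14), and Cd44 rose at D30 (0.37 ± 0.11) and D180 (0.63 ± 0.11).

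To see which genes varied with the 8 among rats treated alike, each gene's deviations from its group means over the 36 arrays were correlated with the mean deviation of the 8. The 10 genes of highest r were Spock2 (0.87), Synpo (0.80), Mtap (0.80), LOC102550733 (0.77), LOC102551556 (0.76), Arhgef18 (0.76), LOC102551266 (0.75), Prkaca (0.72), Alpk3 (0.71) and Pgrmc2 (0.71), where the median over all genes was 0.06 and the 95th percentile 0.43. Spock2, a secreted proteoglycan, is in the longer type 1 list as well, and was at -0.42 ± 0.15 at D1 (adjusted p = 0.0503) and fell by 0.58 ± 0.15 at D180 (SE, adjusted p = 0.00466). These correlations are a description, and the points share slides, scan dates and the normalization. The 8 genes were not tightly bound to each other. Over their 28 pairs the r of the deviations ran from -0.33, for Clic5 and Cldn18, to 0.80, for Ager and Cldn18, with a median of 0.13. Ager followed the mean of the other 7 best (r = 0.57), and Hopx (0.05) and Rtkn2 (0.08) hardly did.

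The result depended on the scale and on the arrays set against each other. With each array scaled to its 75th percentile, 2 of the 8 genes fell at D1 (Rtkn2 and Cav1), 1 at D30 (Aqp5) and 5 at D180 (all but Hopx, Clic5 and Cldn18), and the medians of the 8 were -0.17, -0.26 and -0.35. Of all genes, 9.69%, 1.24% and 8.76% fell at the 3 times under that scaling. At D1 the point estimates of Aqp5, Hopx and Cldn18 turned above 0 under that scaling (0.01, 0.05 and 0.17), while those of the other 5 genes stayed below 0. The median of all genes at D1 was then -0.10. With that scaling Cav1 and Rtkn2 at D180 were at -0.70 and -0.74, against -0.80 and -0.75. Over 15 other ways of processing, Cav1 at D180 ran from -0.86 to -0.61 and Rtkn2 from -0.76 to -0.41.

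The hybridisations were spread over 19 slides and 11 scan dates, of which 5 slides and 5 dates held both vehicle and DQ-12 rats of a time. All 6 DQ-12 arrays of D1 were scanned on a date that held 1 vehicle array. Within that date the median difference of the 8 genes was -0.31. It was -0.23 and -0.27 within both shared dates of D30, and -0.41 and -0.56 within those of D180. Within shared slides the medians were -0.36 at D1, -0.29, -0.20 and -0.35 at D30, and -0.40 at D180, where a single slide held 1 rat of each group. With scan date as a term of the model, 0 of the 8 genes passed at D1 in limma (3 had an unadjusted p under 0.05), 1 at D30 and 5 at D180. The share of all genes that fell was then 0.299% at D1, where it had been 8.76%, 0.367% at D30 and 7.41% at D180. With slide as a term, 0 passed at D1 and 0 at D180 (3 unadjusted at each), and 1, Cav1, at D30 (log2 fold change -0.47, adjusted p = 0.0150). Of all genes, 0.611% fell at D1, 0.54% at D30 and 1.1% at D180 with that term. It leaves 5 rats for the comparison at D1 and 2 at D180. For D1, the median within the shared date, -0.31 against -0.33 over all rats, rested on 1 vehicle rat, replicate 3. The differences there were -0.16 for Ager, 0.08 for Aqp5, -0.36 for Hopx and -0.25 for Pdpn. They were -0.46 for Rtkn2, -0.40 for Clic5, 0.01 for Cldn18 and -0.62 for Cav1. Hopx was at -0.10 over all rats, and vehicle replicate 3 had the highest Hopx of its group.

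**Figure D5:**
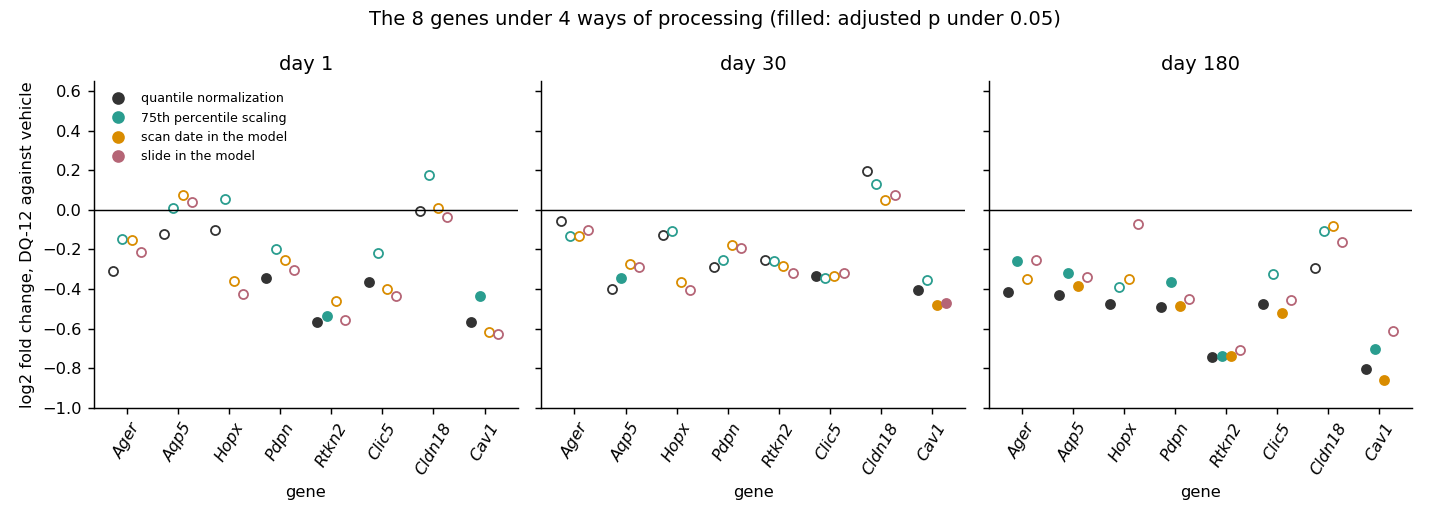
Log2 fold change of DQ-12 against vehicle rats (y axis) of the 8 genes at D1, D30 and D180 under quantile normalization, 75th percentile scaling, and quantile normalization with scan date or slide as a term of the model, with filled points where the adjusted p was under 0.05. Cav1, Rtkn2, Pdpn, Clic5 and Ager lie below 0 in every setting drawn, and at D180 no point of the slide model is filled.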

How the data were processed

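Total RNA of the accessory lobe of 36 rat lungs was labelled with Cyanine 3 and hybridised by the authors to Agilent single-colour arrays, 1 per rat. The deposited files hold the processed intensity of each spot from Agilent Feature Extraction 12.0.1.1, which had subtracted the background, and a deposited table of log2 values. That table was matched here by the processed intensity scaled to the 75th percentile of each array over all its probes and centred on each probe's median over arrays (median absolute difference 0.00013 over 45598 probes). Its centring is therefore known, and it was used only as an alternative. The authors' own analysis, per the methods, used quantile normalization, an unnamed batch correction and limma.

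Here spots flagged as outliers (232 to 596 per array) were dropped, spots of a probe were averaged on the log2 scale, and a probe was retained if its signal exceeded, on 6 or more arrays, the 95th percentile of 308 negative controls. After quantile normalization, each gene was represented by its probe of highest mean signal, which left 23721 genes. They were fitted in limma 3.58.1 (R 4.3.3) with 6 group means over all 36 arrays and Benjamini-Hochberg adjustment per comparison. Standard errors are limma's. The fit was tested on simulated data with 200 changed genes. Figures were drawn with matplotlib 3.10.9. The number of arrays limits the precision.

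The 8 genes were named with every probe, from each further gene list up to 3 genes with the largest change among those passing at each time, and the 10 genes of most like pattern. The genes and the lists were chosen with earlier results of these data known. Cyp2b1, Lama3 and S100p were not found on the array by these names, and some other genes of the further lists are not reported here. Cavin1, Cavin2 and Cavin3 were listed under their current names only. Symbols were matched to the RefSeq gene table of assembly GRCr8, and no sequence position was taken from it. Replicate numbers did not pair the rats, since the deviations of vehicle and DQ-12 rats of the same number correlated with r from -0.13 to 0.22. Alternatives covered intensity column, background correction, scaling, filter, probe summary, moderation, array weights, replicate, scan date and slide blocks, each time alone, and leaving out each rat.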

Additional observations from a re-analysis of the deposited data

Results flagged for a closer look

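Of 48 groups of 6 rats, formed by the 8 genes and 6 groups, 7 held a rat that stood apart, judged by its gap to the nearest of the others divided by the range of the group. Chance gives about 1 in 20 groups, so some of these would appear without any cause.

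At D30, vehicle replicate 4 stood above the other vehicle rats in both Ager (gap 0.780 of the range, signal 17.63 against 17.13 to 17.24) and Cldn18 (gap 0.767, signal 17.11 against 16.35 to 16.53), the pair of genes that varied most alike between rats. At D180, vehicle replicate 6 had the lowest Pdpn of its group (gap 0.770, signal 15.74 against 16.00 to 16.08) and the highest Rtkn2 (gap 0.725, signal 9.37 against 8.70 to 8.89). At D1, Hopx was highest in vehicle replicate 3 (gap 0.771, signal 15.46 against 15.10 to 15.18), Pdpn was lowest in DQ-12 replicate 2 (gap 0.689, signal 15.12 against 15.60 to 15.82), and Rtkn2 was highest in DQ-12 replicate 4 (gap 0.659, signal 8.58 against 7.95 to 8.17). Without vehicle replicate 6 at D180 Rtkn2 and Pdpn still passed there, and without DQ-12 replicates 2 or 4 at D1 so did Pdpn and Rtkn2.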

How the results depend on the processing

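The count of the 8 genes that passed at D1, 4, became 2 with 75th percentile scaling, with the deposited log2 values and with the median over probes, and 0 with scan date or slide as a fixed block. Of all genes, 2078 fell at D1 in the main fit. That number was 2299 with 75th percentile scaling, 2288 with the deposited values and 1448 with the median over probes. The count at D30, 2, became 4 with normexp, with trend and robust moderation and with array weights. Of all 23721 genes, 302 fell at D30 in the main fit, against 377, 371 and 1841 with these settings in that order. The count of the 8 at D30 became 1 with 75th percentile scaling, the deposited values, each time alone, scan date as a fixed or random block and slide as a fixed block. With those settings 63 to 293 of all genes fell. The count at D180, 7, became 0 with slide as a fixed block, which leaves 1 rat of each group on a shared slide. For the difference between D180 and D30, array weights gave 1 gene, against 0. The share of all genes that passed for that difference with array weights is not given. Every other setting run kept these counts within 1.5 times, and none gave a 2-fold change. Leaving out each rat gave 4 to 5 genes at D1, 1 to 4 at D30 and 6 to 7 at D180, and 0 to 0 both for 2-fold changes and for differences between times. At D30 the count was 1 without vehicle replicates 1, 2, 5 or 6 or DQ-12 replicates 1 or 4, and 4 without DQ-12 replicate 5.

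With the replicate number as a block, 4, 3 and 7 genes passed at D1, D30 and D180, and 0 for differences between times, but the numbers did not pair the rats. Of all genes, 2164, 351 and 2287 fell at D1, D30 and D180 with that block. Log2 fold changes that turned sign beside a call were Rtkn2 at D1 (0.18 with the median over probes, 0.92 on its dim probe), Cldn18 at D1 (0.31 on its other probe) and Hopx at D180 (0.10 on its other probe). Cav1 passed in 13 of 15 other ways of processing at D1, in 13 of 15 at D30 and in 14 of 15 at D180, and without any 1 rat at all 3 times. Hopx at D180 passed in 8 of 15. The causes of these changes were not tested.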
